A study of Mus musculus with 34 samples.

Results

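The genes described here encode the machinery through which thyroid hormone acts on the liver genome: the thyroid hormone receptors Thra and Thrb, the retinoid X receptors Rxra, Rxrb and Rxrg with which they pair, the corepressor Ncor1 with its histone deacetylase Hdac3, and the coactivators Ncoa1 and Ncoa2. The members were taken as every non-control probe whose RefSeq accession in the scanner files belonged to 1 of these 9 genes, and each probe was followed separately. This gave 17 of the 41174 probes on the array and 9 of the 16535 genes that could be named, with at least 1 probe for each gene. RNA came from the livers of 34 C57BL/6 pups, 17 of each sex, killed at PND (postnatal day) 15, 4 h after an intraperitoneal injection. The control pups (4 males, 4 females) received saline. The hyper pups (5 males, 5 females) received T4 at 50 and T3 at 5 µg per 100 g body weight. The hypo pups (4 males, 5 females) received saline after 3 days in which the drinking water of their dams held 0.05% methimazole and 1% sodium perchlorate, which block thyroid hormone synthesis. The hypo+ pups (4 males, 3 females) had the same goitrogens followed by T4 at 20 and T3 at 2 µg per 100 g. Goitrogens thus reached the pups through the dam, and the hypo+ group differed from the hyper group in both the pre-treatment and the hormone dose. The hypo+ pups were also selected after treatment. The study split the replaced pups by measured serum T4 and kept as hypo+ those whose T4 was close to control or a little above it. Replaced pups with higher T4 were not put on arrays.

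On each array, pup RNA was labelled with Cy5 and a universal mouse reference RNA with Cy3, so that each value is the log2 ratio of pup to reference. These ratios can be compared between pups for 1 probe, but not between probes. A probe was called in a comparison when its Benjamini-Hochberg adjusted p in limma, over all 41174 probes, was below 0.05. Animal numbers read as litters gave 20 litters, each with 1 treatment, of which 14 held pups of both sexes, and pups of 1 litter are not independent.

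Thyroid hormone receptors are nuclear receptors that sit on DNA mostly as heterodimers with an RXR, with or without their ligand. Without T3, the pair recruits corepressor complexes, such as those built on NCoR1, that carry HDAC3, and chromatin at the target gene is held deacetylated. Binding of T3 releases the corepressors and recruits p160 coactivators such as NCoA1 (SRC-1) and NCoA2 (TIF2). In liver, TRβ is the main receptor in hepatocytes, RXRα is the main RXR, and the same RXRs also serve as partners of the retinoic acid, fatty acid, oxysterol, bile acid and xenobiotic receptors.

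Thyroid hormone response elements are built from versions of the hexamer AGGTCA, and the promoters of the members themselves were read for it to show where their own start regions carry these letters. Sequence on GRCm38.p6, from 250 bases before to 50 bases after a start, was given for 6 of the 9 genes (Thrb, Rxra, Rxrb, Rxrg, Ncor1 and Ncoa1) in 11 windows. These windows do not cover every annotated start, since the annotated Thrb and Rxra genes begin upstream of theirs. AGGTCA on either strand was present in 3 of the 11 windows, and in 16.3% of all 32851 windows. The direct repeat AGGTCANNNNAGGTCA, the classical spacing for a receptor-RXR pair, was in none of the 11 windows and in 0.0152% of all windows. The 4 matches are shown 5′ to 3′ on the strand that reads AGGTCA, which is in capitals. They lie at chr14:17660766-17660791 (plus strand) for Thrb, at chr2:27709195-27709220 (minus strand) and chr2:27709234-27709259 (plus strand) for Rxra, and at chr1:167618167-167618192 (plus strand) for Rxrg.
Thrb: gagagttgacAGGTCAagggaatagg
Rxra, first match: accattactcAGGTCAcacccatttc
Rxra, second match: gtggcaggaaAGGTCAgtcactctct
Rxrg: cggggttgaaAGGTCAgctgaaagct
A match to these letters describes the sequence and is not a measured binding site.

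Liver markers bore out the tissue. All 12 probes for 8 hepatocyte genes, among them Alb, Apoa1 and Ttr, were well above background in Cy5 on every array. In 7 pups, markers of pancreatic acinar cells or skeletal muscle lay more than 0.5 (log2) above the median array. For the mean of the 8 acinar probes this was so in control males 832 and 522 (3.12 and 2.84 above), control female 831 (2.06) and hypo+ female 543 (0.98). For the mean of the 6 muscle probes it was so in hypo female 721 (3.71), hyper male 498 (1.28), hypo+ female 763 (0.79) and control male 522 (0.60). Without these 7 pups, which leaves 1 hypo+ female, 1 member result over both sexes changed its call (Rxrg in hypo+ against hypo). In the fits by sex no call changed, but 15 of 85 female results, all in comparisons of hypo+, and 1 of 85 male results moved by more than the spread between replicates. Of the other marker lists, no Kupffer cell (9 probes), liver endothelial (6), cholangiocyte (8) or leukocyte (9) probe was called in any treatment comparison over both sexes. Among 10 stellate probes 1 was called (Lrat, 0.74 higher in hyper than in hypo), beside 6.26% of all probes. The second Lrat probe was not called, with means of 2.16 in hyper and 1.74 in hypo pups. Among 8 erythroid probes 2 were called in hyper against hypo (Klf1 -0.33, and 0.13 for an Epb42 probe well above background on 3 of 34 arrays). No hepatocyte or muscle probe was called. Of the 8 acinar probes 1 was called, Amy2a5 in hypo against control (-0.68), beside 1.28% of all probes. However, most of the pups with raised acinar markers were controls. At an unadjusted p below 0.05 in limma, all 8 acinar probes were lower in hypo than in control (median -0.94), beside 8.93% of all probes. In hyper and hypo+ against control 7 of 8 passed (medians -0.99 and -0.82), beside 7.41% and 11.9%. In bulk RNA, a change in the number of cells of a type and a change in RNA per cell cannot be told apart.

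**Figure D1:**
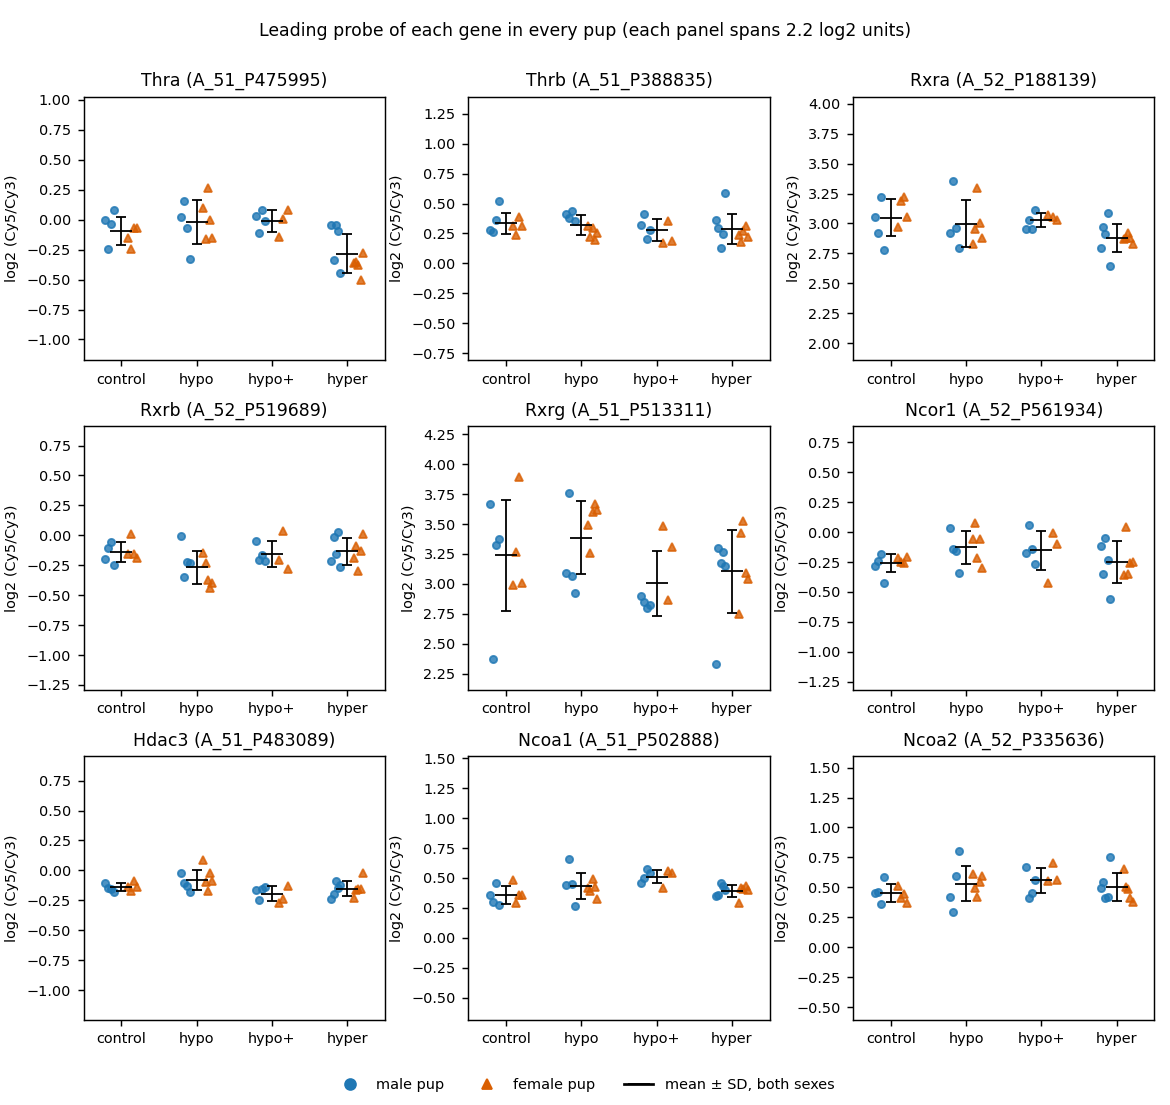
Log2 ratio of pup to reference for the leading probe of each gene, the one with the highest mean Cy5 signal, with 1 point per pup (circles, males; triangles, females) and the mean ± SD of each treatment group. Panels have the same height in log2 units, so that the wide scatter of Rxrg and the narrow band of Hdac3 can be seen, and in the Thra panel the 5 hyper females lie between -0.51 and -0.28.

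Over both sexes, differences in the RNA of these genes from control were small, and protein was not measured. A probe that was not called is not shown to be unchanged, since SEs reached 0.17 in hypo+ against control. No member probe differed from control by more than 0.22 (log2) in either direction over both sexes, and of the 17 probes 0 were called in hypo, hyper or hypo+ against control, beside 1.28%, 0.952% and 1.32% of all probes. At an unadjusted p below 0.05 in limma, 2, 3 and 1 of the 17 probes passed, where the shares of all probes were 8.93%, 7.41% and 11.9%. In hypo+ against hypo again 0 of 17 were called (background 3.58%), with 2 at an unadjusted p below 0.05 beside 14.5% of all probes. The widest thyroid contrast, hyper against hypo, called 1 of 17 probes, a share close to the 6.26% of all probes called there. That probe was the leading probe of Thra, and 6 of 17 passed an unadjusted p below 0.05 beside 15.3% of all probes. The comparisons share their control or hypo pups and so are not independent of each other.

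In separate fits by sex, the only call was the same Thra probe in hyper against hypo in females, where 2.5% of all probes were called and 4 of 17 members passed an unadjusted p below 0.05, beside 10.7% of all probes. In males 0 of 17 were called in that comparison by limma (background 1.39%), and 0 passed the unadjusted threshold (8.41%). For hypo against control, neither sex had a call among the 17 probes (0.0971% of all probes in males, 0.155% in females), with 0 and 1 at an unadjusted p below 0.05 (5.19% and 4.72%). The same held for hyper against control (0.0753% and 0.158%), with 0 and 3 at the unadjusted threshold (2.98% and 6.15%). The same held for hypo+ against control (0.0267% and 0.0219%), with 1 and 2 at the unadjusted threshold (7.56% and 4.79%). Nor was a member called in hypo+ against hypo (0.369% and 0.556%), with 0 and 1 at the unadjusted threshold (9.18% and 7.76%).

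Member probes rarely separated 2 groups completely. Over both sexes, groups overlapped for all 17 probes in each of the 5 comparisons, where 0.321% (hypo against control), 0.287% (hyper against control), 0.457% (hypo+ against control), 0.729% (hypo+ against hypo) and 1.15% (hyper against hypo) of all probes did not overlap. In males, the groups did not overlap for Ncoa1 in hypo+ against control (1 of 17, background 4.11%) and for Rxrg in hypo+ against hypo (1 of 17, 4.61%), and for 0 of 17 in hypo against control (3.08%), hyper against control (1.27%) and hyper against hypo (3.87%). In females, they did not overlap for Thra and both Rxra probes in hyper against control (3 of 17, 2.55%), for Thra in hyper against hypo (1 of 17, 3.48%) and for the leading Ncoa2 probe in hypo+ against control (1 of 17, 5.89%), and for 0 of 17 in hypo against control (1.78%) and hypo+ against hypo (5.06%).

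**Figure D2:**
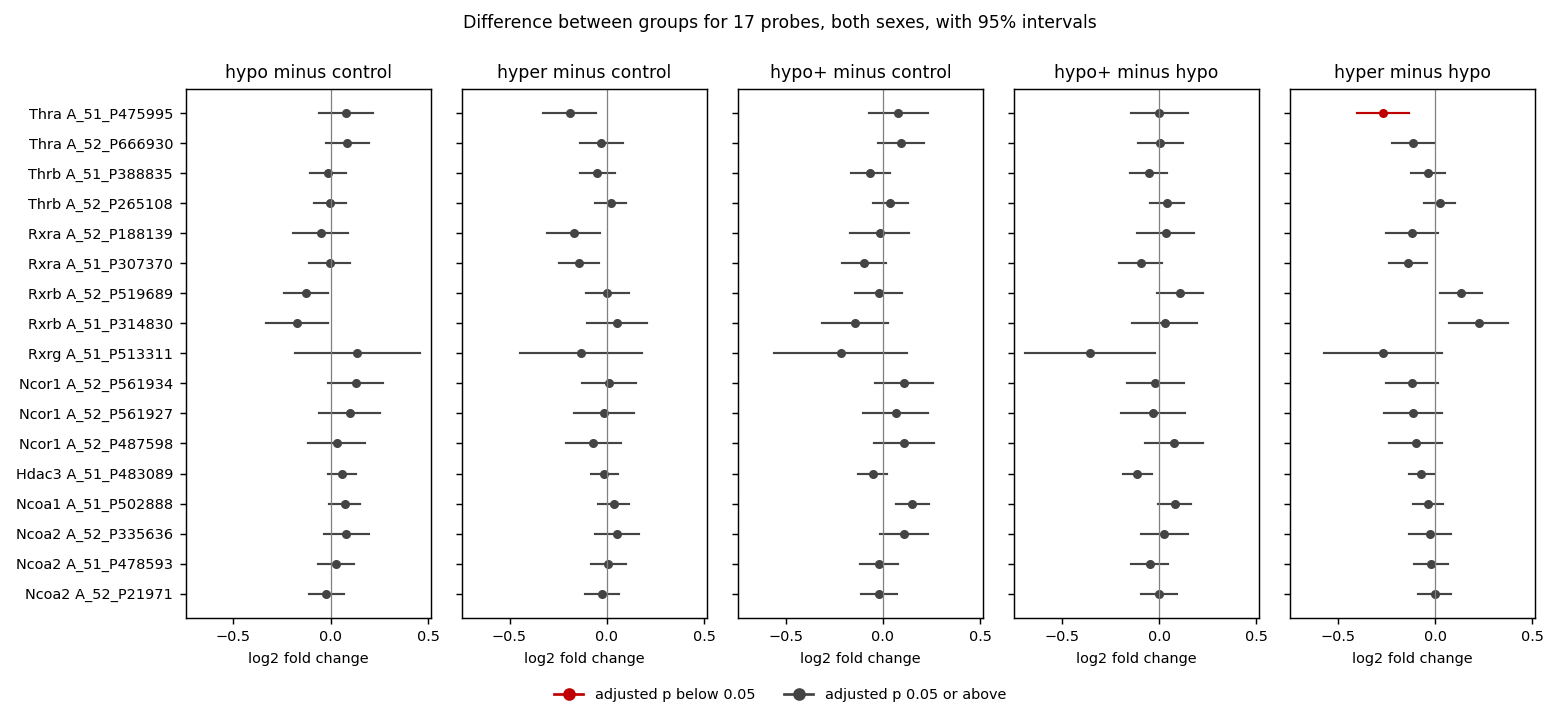
Log2 fold change of each of the 17 probes over both sexes (points) with 95% confidence intervals (lines) in 5 comparisons. Thra A_51_P475995 in hyper minus hypo (-0.27) is the only probe in red, which marks an adjusted p below 0.05, and most intervals lie within 0.3 of 0.

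Thra, the gene of TRα, was the only member that passed the test. Its leading probe (A_51_P475995) was lower in hyper than in hypo livers by 0.27 on the log2 scale (-0.27, SE 0.065, adjusted p = 0.00709 in limma), a ratio of 0.830. In the 5 hyper females the log2 ratios were -0.51, -0.38, -0.36, -0.35 and -0.28. In the 5 hypo females they were -0.16, -0.15, -0.00, 0.09 and 0.27. Every hyper female lay below every hypo female, and the difference between them was -0.38 (SE 0.076, adjusted p = 0.00925 in limma).

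In males the same probe gave -0.44, -0.33, -0.10, -0.05 and -0.04 in the hyper pups. The 4 hypo males gave -0.33, -0.07, 0.03 and 0.15. The male groups overlapped, since 3 of the 5 hyper males lay among the hypo males, and the difference of -0.14 (SE 0.10) had an adjusted p of 0.909 in limma. The difference between the sexes in this effect, tested as an interaction, was -0.25 (SE 0.13, unadjusted p = 0.0674), and 0 probes of the array passed adjustment for it, so a difference in the Thra response between the sexes was not shown. Control pups lay from -0.25 to 0.08 (median -0.07) and hypo+ pups from -0.14 to 0.08 (median 0.01). Hyper against control was -0.19 (SE 0.067, adjusted p = 0.290) for this probe, while hypo and hypo+ each differed from control by 0.08. All 5 hyper females also lay below the 4 control females (-0.24, -0.15, -0.07 and -0.07).

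The hypo female with muscle RNA, pup 721, had the highest Thra ratio of the 34 pups (0.27). Without it the female difference was -0.32 (adjusted p = 0.0179), and without all 7 pups with raised pancreas or muscle markers the difference over both sexes was -0.25 (adjusted p = 0.0125). When arrays were centred on their median in place of loess, the difference over both sexes was -0.23 with an SE of 0.12 and was not called (adjusted p = 1.00), and with Cy5 alone the female difference was -0.37 (adjusted p = 0.0910).

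The second Thra probe (A_52_P666930) ranged from -0.91 to -0.54 in hyper, from -0.79 to -0.52 in hypo, from -0.88 to -0.50 in control and from -0.84 to -0.41 in hypo+ pups. These ranges overlapped throughout. Hyper minus hypo was -0.11 (SE 0.052, adjusted p = 0.277), so the direction was that of the leading probe and the test was not passed. Both probes carry the same RefSeq accession, and which Thra transcripts each detects was not settled here. The 2 probes were correlated over the 34 pups (Pearson r = 0.57, permutation p = 0.00051, adjusted p over 10 probe pairs 0.0017; Spearman rho = 0.63, permutation p = 9e-05), and r was 0.42 after group means were removed and 0.48 without the 2 pups farthest from the median.

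**Figure D3:**
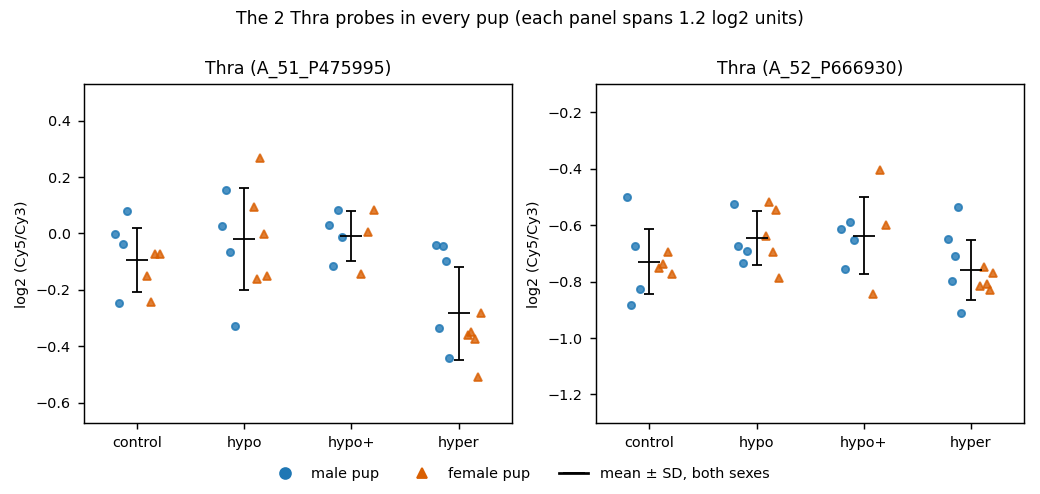
Log2 ratio of pup to reference for the 2 Thra probes, with 1 point per pup (circles, males; triangles, females) and the mean ± SD of each treatment group. In the left panel the hyper females form a group below the hypo females, and in the right panel the groups overlap.

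In GRCm38.p6 the end of Thra overlaps 1075 bases of Nr1d1, the gene of the clock repressor REV-ERBα on the opposite strand. None of the 3 Nr1d1 probes was called in any comparison over both sexes. In hyper minus hypo they gave -0.12 (SE 0.11), 0.01 (SE 0.074) and 0.04 (SE 0.047).

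Thrb, the gene of TRβ, was not called in any comparison. Its leading probe (A_51_P388835) had a median of 0.31 in control (range 0.23 to 0.52), 0.31 in hypo (0.20 to 0.44), 0.28 in hypo+ (0.17 to 0.41) and 0.26 in hyper pups (0.13 to 0.59). The 4 ranges overlapped. Hyper minus hypo was -0.04 with a 95% interval from -0.13 to 0.05, and the other 4 differences lay between -0.06 and -0.01.

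The mean Cy5 signal of this probe, 162, was not far above the limit set by negative control spots (85.0 to 106 across arrays). Because background was not subtracted, ratios of such dim probes lie closer to 0 than the RNA ratio. The second Thrb probe (A_52_P265108) was well above background in Cy5 on 12 of 34 arrays and above the negative control limit on 27, so its log2 ratios (-0.16 to 0.19) bound the level only loosely. The 2 Thrb probes did not follow each other (r = -0.13, rho = -0.09, permutation p = 0.48 and 0.627).

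Between the sexes, 0 of the 17 probes were called in limma, beside 0.0996% of all probes, and 1 passed an unadjusted p below 0.05, beside 9.38%. That probe was the leading one of Thrb, with a female minus male difference of -0.08 over all treatments (SE 0.033, adjusted p = 0.454 in limma). In the 5 interaction tests of sex with treatment, 0 of 17 member probes were called in limma, as were 0 of all probes. At an unadjusted p below 0.05 again 0 of 17 passed, where 1.04% (hypo against control), 1.26% (hyper against control), 1.33% (hypo+ against control), 2.11% (hypo+ against hypo) and 1.4% (hyper against hypo) of all probes did.

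Rxra, the gene of the main hepatic RXR, was represented by a bright probe (A_52_P188139, mean Cy5 19834) and a dimmer one (A_51_P307370, mean Cy5 362). The bright probe had medians of 3.05 in control, 2.95 in hypo, 3.03 in hypo+ and 2.88 in hyper. Its hyper females (2.83, 2.87, 2.88, 2.88 and 2.92) all lay below the control females (2.97, 3.05, 3.18 and 3.22). The hyper males (2.64, 2.80, 2.91, 2.97 and 3.09) overlapped the control males (2.78, 2.92, 3.05 and 3.22).

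Over both sexes, hyper minus control was -0.17 (SE 0.068, adjusted p = 0.419) for the bright Rxra probe and -0.14 (SE 0.050, adjusted p = 0.279) for the dimmer one. The dimmer probe also separated hyper from control females, 0.46 to 0.62 against 0.65 to 0.77. Neither probe was called. Without the 7 pups with raised pancreas or muscle markers the differences were -0.12 (adjusted p = 0.774) and -0.08 (adjusted p = 0.835). Against hypo, the dimmer probe was -0.14 in hyper (SE 0.049, adjusted p = 0.0948 in limma). This difference passed the threshold with normexp background correction (-0.18, adjusted p = 0.0373) and with slide as a fixed or a random block (adjusted p = 0.0237 and 0.0361). It also passed with scan date as a block (adjusted p = 0.0431) and without hypo male 891 (-0.16, adjusted p = 0.0485). The difference did not pass with median centring, the authors' log2 values, the scanner ratio or Cy5 alone. Nor did it pass with litter as a block or without the 7 pups. The 2 Rxra probes were correlated (r = 0.52, permutation p = 0.00151, adjusted p = 0.00378; rho = 0.47, permutation p = 0.00493), with r = 0.38 without the 2 farthest pups.

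Rxrb, a broadly expressed RXR, was not called, and its values were higher in hyper than in hypo pups for both probes. Its dimmer probe (A_51_P314830) had medians of -0.31 in control, -0.47 in hypo, -0.55 in hypo+ and -0.29 in hyper pups. The hypo range (-0.86 to -0.24) and the hyper range (-0.60 to -0.04) overlapped. Hyper minus hypo was 0.22 (SE 0.075, adjusted p = 0.0707), 0.22 in each sex. For the leading probe (A_52_P519689) the same difference was 0.13 (SE 0.053, adjusted p = 0.173), and hypo minus control was -0.13 and -0.17 for the leading and the dimmer probe, with unadjusted p of 0.0281 and 0.0361.

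None of these Rxrb differences was called, yet several lay near the threshold. For the dimmer probe, hyper minus hypo passed with normexp correction (0.26, adjusted p = 0.0301), with slide as a random block (adjusted p = 0.0389), and without hyper female 621 (adjusted p = 0.0224), hypo female 575 (adjusted p = 0.0431) or hypo male 311 (adjusted p = 0.0298). The leading probe passed in limma when the Cy5 channel was used alone, without the reference. Hyper minus hypo was then 0.20 (adjusted p = 0.00499), hypo minus control -0.22 (adjusted p = 0.0106) and hypo+ minus hypo 0.28 (adjusted p = 0.000977). As loess ratios its means were -0.16 in hypo+ and -0.27 in hypo pups, which was not called. The dimmer probe was not called with Cy5 alone. Neither probe passed over both sexes with median centring, the authors' log2 values or the scanner ratio. Nor did either pass with slide as a fixed block, scan date or litter as a block, or without the pups with raised pancreas or muscle markers. The 2 Rxrb probes followed each other closely (r = 0.74 and rho = 0.77, permutation p = 1e-05, the smallest that 100000 permutations can give), with r = 0.74 after group means were removed.

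Rxrg, the RXR best known from muscle and brain, was the most variable member between pups. Its only probe (A_51_P513311) ranged from 2.33 to 3.89 over the 34 pups, with a within-group SD of 0.36, wider than that of 96.3% of 22276 probes well above background in Cy5 on all arrays. The reference signal behind these high ratios was low, with a median Cy3 of 59 beside a median Cy5 of 870.

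The lowest Rxrg values were 2.33 in hyper male 498, whose 4 group mates lay from 3.15 to 3.30, and 2.37 in control male 522, whose group mates lay from 3.33 to 3.66. Both pups were among the 7 with raised muscle or pancreas markers, and the part of those tissues in the low values was not tested. Hypo female 721, with the highest muscle markers, had an Rxrg ratio of 3.60, within the range of its group (3.25 to 3.67).

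Rxrg had its widest difference between hypo+ and hypo pups. The 4 hypo+ males gave 2.80, 2.83, 2.85 and 2.90, and the 4 hypo males gave 2.93, 3.07, 3.09 and 3.76. These male groups did not overlap. In females, hypo+ pups gave 2.87, 3.30 and 3.48 and hypo pups lay from 3.25 to 3.67, with overlap. Over both sexes the difference was -0.35 (SE 0.16, 95% interval -0.69 to -0.02, adjusted p = 0.303). Without the 7 pups, which left 1 hypo+ female, it was -0.51 (SE 0.14, adjusted p = 0.0357) and passed the threshold.

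Ncor1, which recruits HDAC3 to unliganded receptors, had 3 probes, and none was called in any comparison. The leading probe (A_52_P561934) had medians of -0.25 in control, -0.14 in hypo, -0.14 in hypo+ and -0.26 in hyper pups. Its hyper pups spread from -0.56 to 0.05 and its hypo pups from -0.34 to 0.07, so that the groups overlapped. Hyper minus hypo was -0.12, -0.11 and -0.10 for the 3 probes, with adjusted p from 0.429 to 0.573.

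The 2 probes of Ncor1 with neighbouring numbers (A_52_P561934 and A_52_P561927) followed each other from pup to pup (r = 0.91 and rho = 0.90, permutation p = 1e-05 for each), and r was 0.92 after group means were removed. The third (A_52_P487598) followed the leading probe less closely, with r = 0.48 (permutation p = 0.00404, adjusted p = 0.00808) and rho = 0.35 (adjusted p = 0.088). For this pair r was 0.24 without the 2 farthest pups, so the relation was weaker without them. It was 0.44 after group means were removed, 0.40 in males and 0.56 in females.

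Hdac3, the deacetylase of the NCoR1 complex, was the steadiest member, with a within-group SD of 0.065 that was wider than that of 0.292% of the probes well above background. Its probe (A_51_P483089) ranged from -0.18 to -0.09 in control, from -0.18 to 0.08 in hypo, from -0.28 to -0.13 in hypo+ and from -0.24 to -0.02 in hyper pups. All 4 ranges overlapped. The difference nearest to the threshold was hypo+ minus hypo, at -0.11 (SE 0.036, adjusted p = 0.0819), which passed without hypo female 721 (-0.12, adjusted p = 0.0490).

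Ncoa1, the gene of the coactivator SRC-1, was the member that came closest to a call in a comparison with control. The 7 hypo+ pups lay from 0.41 to 0.57 (median 0.54) and the 8 control pups from 0.28 to 0.48 (median 0.36) for its only probe (A_51_P502888). In males the 4 hypo+ pups (0.46, 0.50, 0.54 and 0.57) all lay at or above the highest of the 4 control pups (0.28, 0.30, 0.36 and 0.46), by a margin under the rounding. In females the hypo+ pups gave 0.41, 0.54 and 0.55 and the control pups 0.29, 0.36, 0.36 and 0.48, so that the groups overlapped through hypo+ female 543 and control female 394. The difference was 0.15 (SE 0.042, 95% interval 0.07 to 0.24, adjusted p = 0.0655).

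This Ncoa1 difference passed the threshold on the authors' own log2 values (0.17, adjusted p = 0.0208), with normexp correction (0.18, adjusted p = 0.0204), and without control female 394 (adjusted p = 0.0340), hypo male 576 (adjusted p = 0.0324), hypo male 891 (adjusted p = 0.0469) or hypo+ female 543 (adjusted p = 0.0402). The difference did not pass with median centring, the scanner ratio or Cy5 alone, or with slide, scan date or litter as a block. Nor did it pass without the pups with raised pancreas or muscle markers. Hypo pups had a median of 0.43 and hyper pups of 0.40, and hyper minus hypo was -0.04 with a 95% interval from -0.11 to 0.04.

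Ncoa2, the gene of TIF2, was covered by 3 dim probes and was called by none of them. The leading probe (A_52_P335636) had medians of 0.45 in control, 0.54 in hypo, 0.56 in hypo+ and 0.49 in hyper pups. The range of hypo pups (0.29 to 0.81) contained those of the other groups. In females the 3 hypo+ pups (0.55, 0.56 and 0.70) lay above the 4 control pups (0.37, 0.41, 0.45 and 0.51), with a difference over both sexes of 0.11 (SE 0.061, adjusted p = 0.519). The hypo+ females at 0.55 and 0.56 were among the 7 pups with raised pancreas or muscle markers, and without those pups the separation rests on 1 hypo+ female and the difference over both sexes was 0.09 (SE 0.084, adjusted p = 0.740). Hyper minus hypo was -0.03, with a 95% interval from -0.14 to 0.08. The other probes (A_51_P478593 and A_52_P21971) gave -0.02 and -0.00, and the last was well above background in Cy5 on 32 of 34 arrays. None of the 3 pairs of Ncoa2 probes was correlated beyond an adjusted permutation p of 0.0743.

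**Figure D4:**
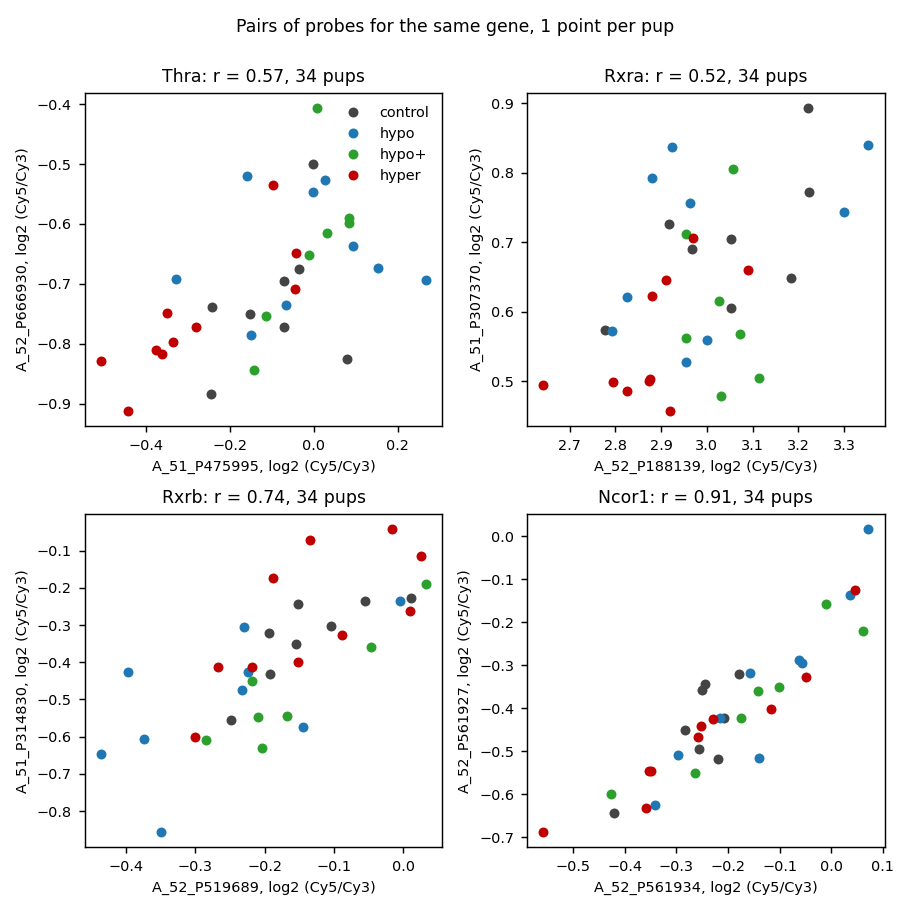
Each panel sets a pair of probes for the same gene against each other, with 1 point per pup coloured by treatment and log2 ratios of pup to reference on both axes. The pairs of Ncor1 (r = 0.91) and Rxrb (r = 0.74) were closer than those of Thra (r = 0.57) and Rxra (r = 0.52).

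For each leading probe, the probes of other named genes whose ratios ran most like it over the 34 arrays were found among 15729 to 15731 candidates. For Thra these were Trnau1ap (r = 0.82) and Slc6a6 (r = 0.81), for Rxra Xylb (r = 0.82) and Naprt (r = 0.81), for Rxrb Tmem259 (r = 0.79) and Dedd2 (r = 0.73), and for Rxrg Amelx (r = 0.80) and Fign (r = 0.80). For Thrb they were Nfasc (r = 0.68) and Pomgnt1 (r = 0.67). Ncor1 was followed by Fam114a2 (r = 0.81) and Nedd4 (r = 0.80), Hdac3 by Tmem106c (r = 0.69) and Gtpbp6 (r = 0.68), Ncoa1 by Chrne (r = 0.75) and Son (r = 0.74), and Ncoa2 by Fpgt (r = 0.72) and Brcc3 (r = 0.67). These are the highest of many values over the same arrays and the same reference RNA, and describe likeness only.

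Several known target genes of the hormone were higher in hyper than in hypo livers. Of 27 probes for 18 hepatic thyroid hormone targets, 11 were called higher and 0 were called lower, beside 6.26% of all probes called in either direction. This list was chosen with earlier results of these data known, so the count describes these genes and is not an independent test. The 27 differences ranged from -0.05 to 2.53 with a median of 0.30, where all probes had a median of -0.00. Dio1, which converts T4 to T3, had a mean log2 ratio of 4.39 (SD 0.54, n = 9) in hypo, 6.00 (SD 0.30, n = 8) in control and 6.33 (SD 0.34, n = 10) in hyper pups, and hyper minus hypo was 1.96 (SE 0.16, adjusted p = 1.78e-10). Thrsp, a lipogenic target, differed by 2.53 in the same direction (SE 0.25, adjusted p = 4.58e-09), although its probe was not well above background in 2 of the 9 hypo pups. Bcl3 (1.62), Gpd2 (1.34) and Me1 (0.81) were also higher. The median of the 17 member probes was -0.07 in this comparison.

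Among 14 other coactivator and mediator genes with 26 probes, 2 probes were called in hyper against hypo, a share near the 6.26% of all probes. Both belonged to Ppargc1b, the gene of PGC-1β, which drives mitochondrial and lipogenic genes. Its probe A_51_P294891 had mean log2 ratios of 0.18 (SD 0.17) in hypo, 0.85 (SD 0.18) in control, 1.12 (SD 0.18) in hyper and 1.43 (SD 0.33) in hypo+ pups, and hyper minus hypo was 0.93 (SE 0.091, adjusted p = 4.53e-09). The other probe gave 1.07.

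Among 14 receptors that compete for RXR as a partner (15 probes), 4 were called in hyper against hypo, beside 6.26% of all probes. Rarb, a retinoic acid receptor and itself a retinoid target, was higher by 0.61 (adjusted p = 2.81e-07), and was also higher in hyper than in control by 0.58 (adjusted p = 1.41e-05). Ppard, a fatty acid receptor whose probe was not well above background on all arrays, was higher by 0.19 (adjusted p = 0.00184). Pparg, the adipogenic fatty acid receptor, was lower (-0.49, adjusted p = 7.47e-05), as was Nr1i3, the xenobiotic receptor CAR (-0.34, adjusted p = 0.000382). The differences in response between these lists and the member probes were not tested.

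**Figure D5:**
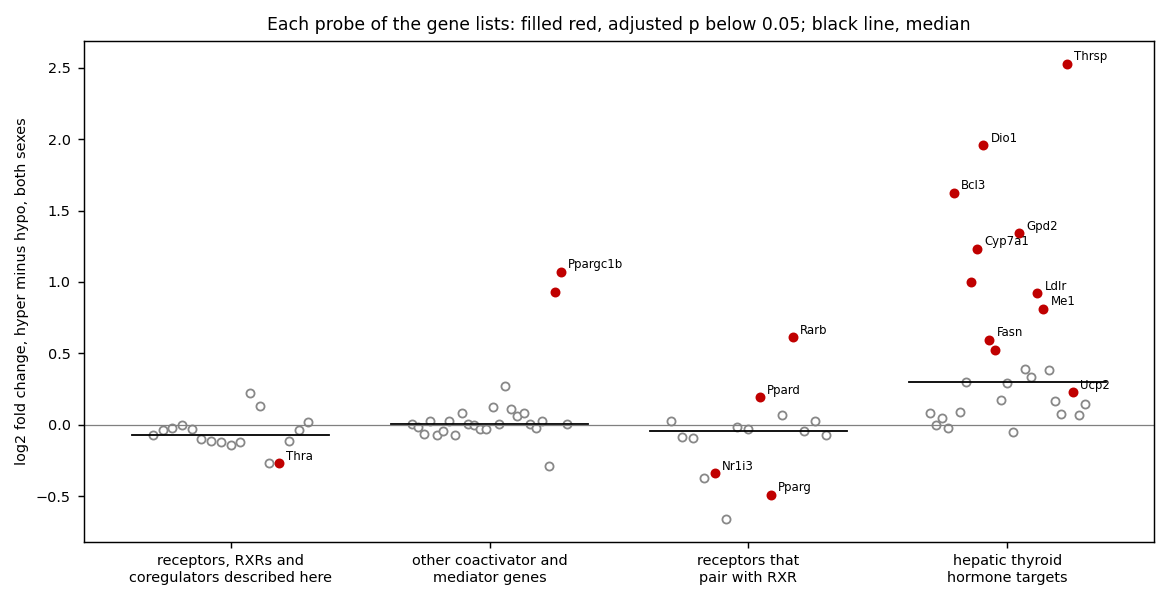
Log2 fold change of hyper minus hypo over both sexes for every probe of the 9 genes described here and of 3 related lists. Filled red points have an adjusted p below 0.05, the black line is the median of a list, and each called gene is named at the largest of its values. Thra is the only named point of the first list, where Thrsp reaches 2.53 in the last.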

How the data were processed

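The authors deposited Agilent Feature Extraction files with the median intensity of each spot in Cy5 and Cy3 and the scanner's log10 ratio, and a table of log2 ratios that correlated at 0.992 to 0.996 with the loess values used here. Spot flags for background and outliers came from the same deposited files. Median intensities were normalized by loess within each array (limma 3.58.1, R 4.3.3) without background subtraction, control spots were left out, 77 to 212 flagged spots per array were set to missing (none of a member), and spots of a probe were averaged. Per array, median Cy5 was 146 to 199 and median Cy3 64 to 100. Array number limits the precision. Of 33541 systematic names, 16806 matched a RefSeq symbol. Each sex (17 arrays, 4 groups) was fitted separately in limma, and both sexes together with sex as a term. Sex-by-treatment interaction and sex were tested on 8 group means. Each P-value was adjusted by Benjamini-Hochberg. The fits were tested on simulated data with independent noise for each array, which cannot show the effect of shared litters or slides. Every member probe is reported. From the lists, genes called over both sexes are named, at most 5 per list by p, with Dio1, Thrsp and Nr1d1, and for likeness the 2 probes of other named genes with the highest Pearson r to each leading probe, among those well above background in Cy5 on all 34 arrays. One further list is not reported here. Members and lists were chosen with earlier results of these data known. The study removed 2 arrays per sex as outliers, which are not analysed here. Alternatives were normexp (offset 50) or median centring, the authors' log2 values, the scanner ratio, Cy5 alone, filters, blocks and leaving out pups.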

Additional observations from a re-analysis of the deposited data

Results flagged for a closer look

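Single pups stood apart from the rest of their group in 5 of 119 combinations of probe and group of 4 or 5 pups, by a gap wider than Dixon's 95% critical value. Chance flags about 1 in 20 groups, which is 5.95 of 119, and each of the 5 belonged to another pup. In hyper females, Ncoa1 was 0.29 in pup 499 (the others 0.40 to 0.43), Ncor1 (A_52_P561934) was 0.046 in pup 585 (the others -0.36 to -0.25) and Rxra (A_51_P307370) was 0.62 in pup 783 (the others 0.46 to 0.50). Ncoa2 (A_51_P478593) was -0.039 in hypo female 316 (the others 0.10 to 0.13). Rxrg was 2.33 in hyper male 498 (the others 3.15 to 3.30), a pup whose muscle markers were 1.28 above the median array.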

How the results depend on the processing

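Over both sexes, the count of member probes called in hyper against hypo (1) was 0 with median centring, 2 with Cy5 alone, scan date or slide as a fixed block, and 3 with normexp or slide as a random block. Without 1 pup it ranged from 1 to 2. All probes called there fell from 6.26% to 1.41% with median centring. In females the count (1) was 0 with median centring or Cy5 alone. The count in hypo against control (0) was 1 with Cy5 alone. In hypo+ against control (0) it was 1 with the authors' log2 values or normexp, and 0 to 1 without 1 pup. In hypo+ against hypo (0) it was 1 with Cy5 alone, 0 to 1 without 1 pup, and 1 without the 7 pups with raised pancreas or muscle markers, a setting chosen after seeing the data. No called value reversed. Over both sexes the Thra difference stayed between -0.31 and -0.23 when any 1 pup was left out, with an adjusted p of at most 0.0194. With litter as a random block it was -0.27 (adjusted p = 0.0124). No paired analysis was possible because the replicate numbers are animal numbers, which no groups share. The fit with slide as a fixed block compares treatments within slides. With slide as a random block, differences between slides are used as well. The counts of both fits are those above. Dim probes of Thrb and Ncoa2 limit what could be seen of these genes.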
